A study of Mus musculus with 6 samples.

Results

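The small leucine-rich proteoglycans (SLRPs) were examined in the cochlea of young and old C57BL/6 mice. The family members were taken by name, namely Dcn (decorin), Bgn (biglycan), Aspn (asporin), Lum (lumican), Fmod (fibromodulin), Prelp (prolargin), Omd (osteomodulin), Kera (keratocan), Epyc (epiphycan) and Ogn (osteoglycin). They are 10 of the 25823 genes obtained when the FPKM values (fragments per kilobase of transcript, scaled to the depth of the library) of the transcripts of each gene were summed. Dissected cochlear basilar membranes of 3 young samples (1 month old) and 3 old samples (12 months old) were sequenced, and tissue of 3 mice was mixed in each sample. The C57BL/6 strain, which loses hearing earlier than many other strains, is shared by both groups, and the labels name no treatment and no engineered allele. As only 2 ages were sampled, growth after the first month and later ageing cannot be told apart. The spread between samples is that between pools of mice. In such bulk tissue, fewer cells of a type and less RNA per cell cannot be told apart either.

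SLRPs are secreted proteins with a core of leucine-rich repeats, and most carry chondroitin, dermatan or keratan sulfate chains. They bind collagen fibrils and set their width and spacing, and decorin and biglycan also bind growth factors such as TGF-beta. By sequence they are divided into class I (decorin, biglycan, asporin), class II (lumican, fibromodulin, prolargin, osteomodulin, keratocan) and class III (epiphycan, osteoglycin). In the inner ear, collagen-rich matrix lies in the spiral ligament, the spiral limbus, the basilar membrane and the bony capsule.

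Genes were compared by limma on log2(FPKM + 0.1). The test took in the 19649 genes whose mean reached 0.1 FPKM, among them all 10 members. Over all genes, 1787 (9.09%) differed between old and young mice at an adjusted p below 0.05. A depth of 12570000 to 15590000 fragments per sample was estimated from the spacing of low values. Hair cell and supporting cell genes were measured in every sample, with summed levels of 72.4 to 216 FPKM over 10 hair cell genes and 3249 to 4091 FPKM over 11 supporting cell genes. Bone genes were measured as well, and the young samples differed among themselves in these (93.5 to 338.9 FPKM over 14 osteoblast and osteocyte genes, against 68.6 to 89.9 FPKM in the old samples).

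Most SLRP genes lie in 3 groups of neighbours in the mouse genome (GRCm38). Dcn, Lum, Kera and Epyc lie within 202.8 kb of chromosome 10 (97479609 to 97682454), all on the plus strand. Aspn, Omd and Ogn lie with the related gene Ecm2 within 119.7 kb of chromosome 13 (49504810 to 49624501). Prelp and Fmod lie with Optc within 151.1 kb of chromosome 1 (133897199 to 134048277), and Bgn lies alone on chromosome X (73483602 to 73495933). The 3 members on chromosome 13 are overlapped on the opposite strand by Cenpp, which was low (1.25 ± 0.166 FPKM in the young and 0.8903 ± 0.179 FPKM in the old group, SD, n = 3 each). The end of Epyc is overlapped by the lncRNA gene Gm10754 on the opposite strand, at 17.2 ± 3.19 and 10.9 ± 3.33 FPKM. Prelp is overlapped by the antisense gene Gm15851, for which no values were found among the matched transcripts. The libraries were directional, but it is not given whether strand was used in the counting.

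The 250 bases before the start sites of members that lie together are printed here 5′ to 3′, as given by RefSeq for GRCm38.p6, where 8 of the 10 members had an entry. Epyc is shown because the table splits it between 2 transcripts with different starts, the neighbours Fmod and Prelp because both were higher in every old sample, and the neighbours Aspn, Omd and Ogn because 2 of these were lower in every old sample and 1 was not. Capitals mark matches on either strand to the TATA box (TATAAA), the GC box (GGGCGG), the CCAAT box (CCAAT), the AP-1 motif (TGANTCA) or the Runx core (TGTGGT).
Epyc, upstream start (chr10:97643818-97644067, plus strand): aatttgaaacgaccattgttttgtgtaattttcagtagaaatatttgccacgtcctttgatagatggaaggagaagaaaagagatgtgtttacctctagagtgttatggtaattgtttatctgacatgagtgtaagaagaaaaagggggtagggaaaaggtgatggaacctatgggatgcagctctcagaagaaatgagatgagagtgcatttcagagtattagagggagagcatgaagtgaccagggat
Epyc, downstream start (chr10:97646853-97647102, plus strand): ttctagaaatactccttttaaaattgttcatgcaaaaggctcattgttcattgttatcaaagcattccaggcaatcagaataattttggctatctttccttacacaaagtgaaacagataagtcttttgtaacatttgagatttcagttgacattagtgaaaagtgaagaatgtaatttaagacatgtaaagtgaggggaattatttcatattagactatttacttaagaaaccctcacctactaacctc
Fmod (chr1:134037004-134037253, plus strand): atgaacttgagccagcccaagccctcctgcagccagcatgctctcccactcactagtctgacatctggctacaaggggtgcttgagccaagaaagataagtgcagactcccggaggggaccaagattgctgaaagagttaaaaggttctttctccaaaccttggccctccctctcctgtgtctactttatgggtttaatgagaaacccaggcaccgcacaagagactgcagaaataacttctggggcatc
Prelp (chr1:133921402-133921651, minus strand): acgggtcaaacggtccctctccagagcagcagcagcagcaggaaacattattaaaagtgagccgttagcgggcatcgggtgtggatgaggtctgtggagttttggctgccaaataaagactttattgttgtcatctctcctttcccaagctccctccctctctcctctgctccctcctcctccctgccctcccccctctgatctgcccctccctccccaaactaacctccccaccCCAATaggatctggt
Aspn (chr13:49544193-49544442, plus strand): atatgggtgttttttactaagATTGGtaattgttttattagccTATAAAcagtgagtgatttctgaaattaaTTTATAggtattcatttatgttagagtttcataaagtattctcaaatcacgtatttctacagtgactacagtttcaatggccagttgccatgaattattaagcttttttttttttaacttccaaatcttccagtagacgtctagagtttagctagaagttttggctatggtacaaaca
Omd (chr13:49582212-49582461, plus strand): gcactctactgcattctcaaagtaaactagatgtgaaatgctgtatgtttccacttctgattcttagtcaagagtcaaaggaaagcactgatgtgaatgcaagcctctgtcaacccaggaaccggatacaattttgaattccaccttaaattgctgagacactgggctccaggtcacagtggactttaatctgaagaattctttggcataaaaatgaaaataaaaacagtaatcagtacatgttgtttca
Ogn (chr13:49607765-49608014, plus strand): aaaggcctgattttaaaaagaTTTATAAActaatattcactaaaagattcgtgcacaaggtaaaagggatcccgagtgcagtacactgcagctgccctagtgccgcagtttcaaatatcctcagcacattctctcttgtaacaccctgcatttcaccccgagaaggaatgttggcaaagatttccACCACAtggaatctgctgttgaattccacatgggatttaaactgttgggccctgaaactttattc
Counted from the start site, the Aspn window holds TATAAA at position -207 on the plus strand and at -178 on the minus strand, and CCAAT at -229 on the minus strand. The Ogn window holds TATAAA on both strands at -229 and -227, overlapping each other, and TGTGGT at -65. The Prelp window holds CCAAT at -15, and the windows of Epyc, Fmod and Omd hold none of the searched letters. The RefSeq starts are not all those of the transcripts in the table. The Omd transcript starts at 49582766, inside the gene, and the downstream Epyc transcript starts at 97647089, just before the RefSeq site. The main Aspn transcript starts at 49544487 and the Ogn transcript at 49608046, both after the RefSeq site. The Prelp transcript starts at 133921414, inside the printed window and at its CCAAT match. Of all 32851 RefSeq windows of this length, 12.37% hold TATAAA, 33.85% CCAAT, 32.74% GGGCGG, 14.05% TGTGGT and 6.75% TGANTCA. The G and C content was 30.0% before Aspn, 38.4% before Omd, 31.2% and 39.2% before the Epyc starts, and 55.6% before Prelp, with a median of 52.4% over all windows.

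In the comparison of old with young mice, 2 of the 10 members were called lower, Dcn and Omd, where 3.68% of all genes were called lower. None was called higher (0 of 10 in limma), where 5.41% of all genes were. Without adjustment, limma p was below 0.05 for 6 members, where this held for 27.5% of all genes. These were 3 higher members (Lum, Fmod and Prelp) and 3 lower members (Dcn, Omd and Aspn), against 14.5% and 13.0% of all genes. For the same 6 members the old and young samples did not overlap, where 33.5% of all genes did not (17.5% higher and 16.0% lower in old mice). Over the 10 members the median log2 change came to 0.12, and over all genes to 0.01. With 3 samples against 3, the exact permutation test of a single gene cannot go below a two-sided p of 0.1, and each of these 6 members had that p.

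**Figure D1:**
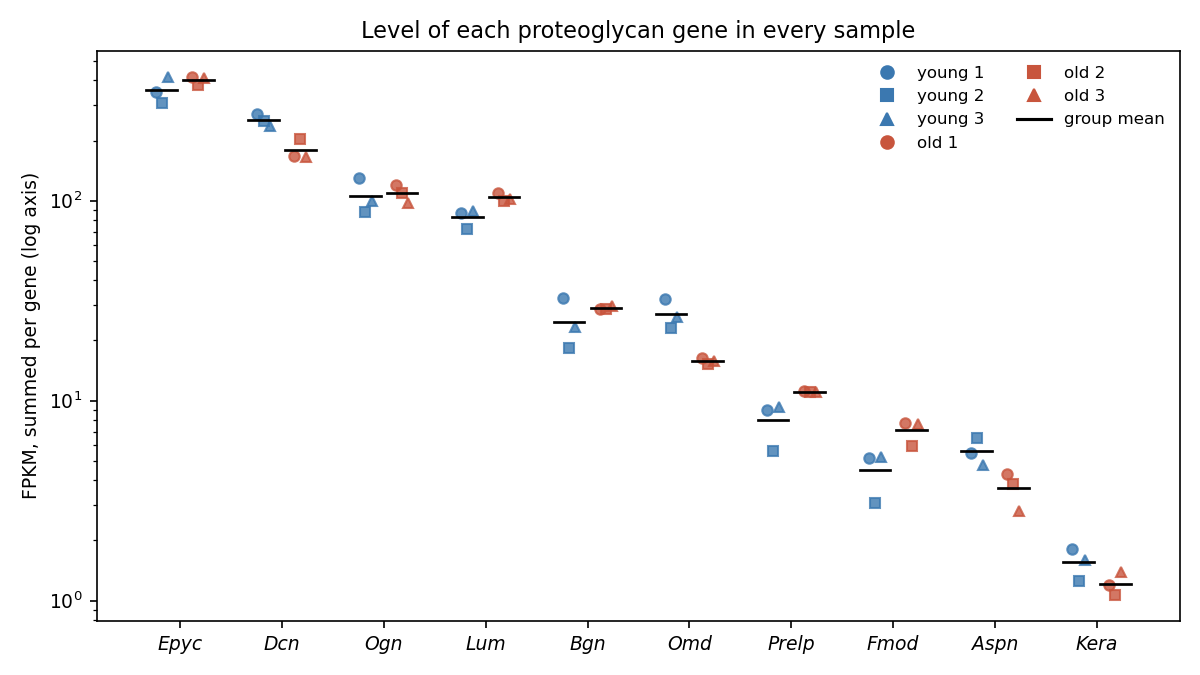
Summed FPKM (log axis) of the 10 SLRP genes in each young sample (blue) and old sample (red), with 1 symbol per replicate number and a line at the group mean. Levels run from 417.5 FPKM for Epyc to 1.07 FPKM for Kera, and the groups do not overlap for Dcn, Lum, Omd, Prelp, Fmod and Aspn.

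Among class I, Dcn was lower in old mice. Decorin binds collagen fibrils through its protein core, carries a chondroitin or dermatan sulfate chain, and is abundant in most fibrous tissue. Dcn (ENSMUSG00000019929.16) was at 271.9, 250.5 and 236.9 FPKM in young replicates 1, 2 and 3, whereas old replicates 1, 2 and 3 had 168.3, 203.4 and 164.8 FPKM. Thus, the lowest young sample lay above the highest old sample. The mean went from 253.1 ± 17.7 FPKM (SD, n = 3) to 178.8 ± 21.3 FPKM (SD, n = 3), a fall of 29.4%, and the log2 change was -0.51 with an SE of 0.10 (limma adjusted p = 0.0269). The call was lost without the filter on low values and without the variance trend (limma adjusted p = 0.0521 and 0.0907). The log2 change was between -0.60 and -0.45 with any 1 sample left out, but it then passed only without young replicate 3 (limma adjusted p = 0.0329). The adjusted p was 0.0698 without young replicate 1, 0.0797 without young replicate 2, and 0.0798, 0.0561 and 0.0784 without old replicates 1, 2 and 3.

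Bgn and Aspn, the other class I genes, did not pass the threshold. Biglycan is the closest relative of decorin and is found in bone, cartilage and around blood vessels. Bgn was at 32.6, 18.4 and 23.4 FPKM in young replicates 1, 2 and 3 and 28.7, 28.7 and 29.7 FPKM in the old ones. The old samples agreed closely and lay within the range of the young ones (log2 change 0.27, 95% interval -0.17 to 0.71, limma adjusted p = 0.407). Without young replicate 2 the log2 change was 0.07, and without young replicate 1 it was 0.48. Asporin, named for a run of aspartic acid residues, binds collagen and calcium. Aspn was at 5.49, 6.52 and 4.75 FPKM in the young replicates and 4.29, 3.83 and 2.81 FPKM in the old ones. Every old sample lay below every young sample (log2 change -0.61, 95% interval -1.08 to -0.14, limma adjusted p = 0.1003), and the call missed the threshold.

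Among class II, Omd was lower in old mice. Osteomodulin, also called osteoadherin, is a keratan sulfate proteoglycan best known from mineralized matrix. Omd (ENSMUSG00000048368.9) was at 32.1, 23.2 and 26.2 FPKM in young replicates 1, 2 and 3, whereas old replicates 1, 2 and 3 had 16.4, 15.3 and 15.7 FPKM. The old samples lay close together and well below the young ones. The mean went from 27.1 ± 4.53 FPKM (SD, n = 3) to 15.8 ± 0.569 FPKM (SD, n = 3), a fall of 41.7%, and the log2 change was -0.76 with an SE of 0.12 (limma adjusted p = 0.0202). The call held without any 1 young sample (limma adjusted p from 0.0299 to 0.0364). It was lost without old replicate 1, 2 or 3 (limma adjusted p = 0.0567, 0.0764 and 0.0597), with log2 changes of -0.79, -0.74 and -0.76, and also without the variance trend (limma adjusted p = 0.0638).

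As osteomodulin is known from bone, bone genes were set beside it. Of the 14 osteoblast and osteocyte genes, 13 were tested, of which 3 were lower (Ibsp, Sp7 and Smpd3) and 0 were higher, with a median log2 change of -1.14, and 0 of the 14 were at 0 in every sample. Ibsp, a bone sialoprotein gene, averaged 13.9 ± 8.37 FPKM in the young and 1.92 ± 0.431 FPKM in the old group (SD, n = 3 each, limma adjusted p = 0.0207). The summed level of the list was 338.9, 93.5 and 188.1 FPKM in young replicates 1, 2 and 3 and 68.6, 84.4 and 89.9 FPKM in the old replicates. Among the young samples, Omd had the same order as the bone genes, highest in replicate 1 and lowest in replicate 2, as had Bgn, Ogn and Kera. This order was not particular to bone. The summed lists of collagens, proteases, keratan sulfate chain genes and further SLRP genes, described below, had it too. In young replicate 2 the bone genes summed to 93.5 FPKM, near the old range, with 42.1 FPKM from Bglap2 alone. Most single bone genes were still above every old sample there. Ibsp was at 6.36 FPKM against at most 2.25 FPKM, and Smpd3 at 4.83 FPKM against at most 3.28 FPKM. Bglap2 and the untested Tnn were not above, and Alpl was below every old sample. Omd was at 23.2 FPKM in young replicate 2, against at most 16.4 FPKM in the old samples. Without young replicate 1, the sample with the most bone RNA, the log2 change of Omd was -0.64. The part of bone in the difference of Omd was not tested.

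Lum, Fmod and Prelp lay above the young samples in every old sample, and none of them passed the threshold. Lumican and fibromodulin bind the same region of collagen and act on fibril growth. Lum was at 86.9, 72.0 and 89.2 FPKM in the young replicates and 109.5, 99.4 and 102.6 FPKM in the old ones (log2 change 0.33, 95% interval 0.11 to 0.55, limma adjusted p = 0.0693). Fmod was at 5.15, 3.08 and 5.20 FPKM in the young replicates and 7.69, 5.90 and 7.69 FPKM in the old ones (log2 change 0.68, 95% interval 0.14 to 1.21, limma adjusted p = 0.107). Prolargin binds collagen and heparan sulfate and anchors basement membranes to connective tissue. Prelp was at 8.97, 5.59 and 9.33 FPKM in the young replicates and 11.1, 11.1 and 11.0 FPKM in the old ones (log2 change 0.51, 95% interval 0.05 to 0.96, limma adjusted p = 0.144). For all 3 genes the lowest sample was young replicate 2. Without this sample the log2 changes were 0.24 for Lum, 0.44 for Fmod and 0.27 for Prelp.

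Keratocan, best known from the cornea, was the lowest member. Kera was at 1.81, 1.26 and 1.59 FPKM in the young replicates and 1.20, 1.07 and 1.38 FPKM in the old ones, estimated from 29.8 to 47.9 fragments per sample. The groups overlapped, and the log2 change was -0.32 (95% interval -0.88 to 0.24, limma adjusted p = 0.430). It was -0.21 without young replicate 1 and -0.20 with a pseudocount of 1 FPKM.

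Class III held the most abundant member. Epiphycan is known from growth cartilage and from supporting cells of the cochlea. Epyc was at 348.9, 309.1 and 417.1 FPKM in the young replicates and 417.5, 378.8 and 412.6 FPKM in the old ones. Old samples lay within or just above the young range (log2 change 0.18, 95% interval -0.08 to 0.44, limma adjusted p = 0.342), and the log2 change was -0.01 after quantile normalization. With young replicate 2 left out it came to 0.08, and with young replicate 3 left out to 0.29 (limma adjusted p = 0.679 and 0.0842). Osteoglycin, also called mimecan, was first described as a bone protein and occurs in many connective tissues. Ogn was at 130.1, 87.5 and 100.1 FPKM in the young replicates and 119.6, 109.4 and 97.2 FPKM in the old ones. The groups overlapped, the log2 change was 0.05 (95% interval -0.29 to 0.40, limma adjusted p = 0.8501), and it was -0.04 after quantile normalization.

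**Figure D2:**
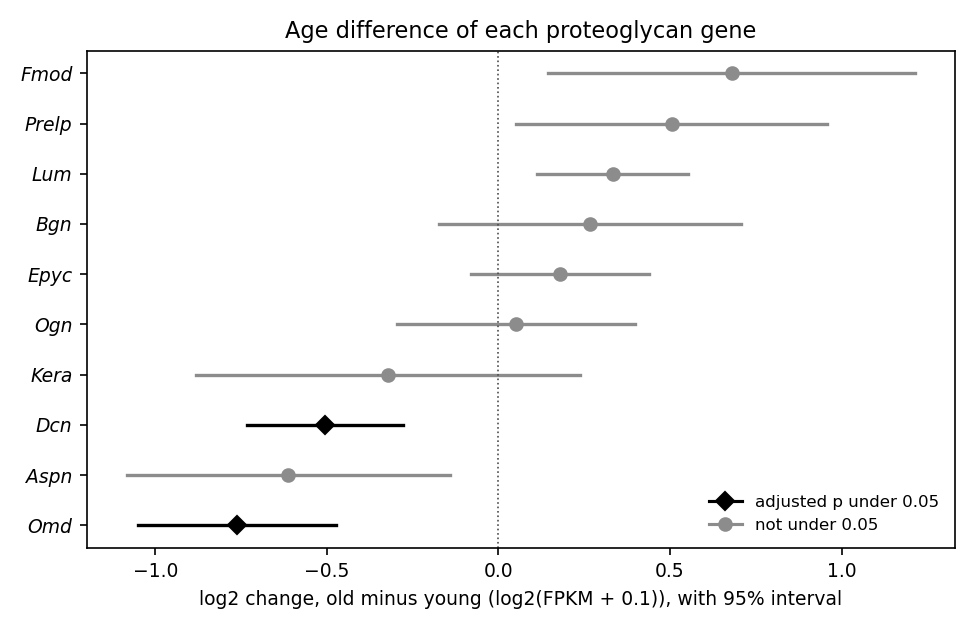
Log2 change of each SLRP gene between old and young mice, with its 95% interval from limma, sorted by size. Dcn and Omd (black diamonds) passed the threshold, and the intervals of Aspn, Lum, Fmod and Prelp also leave out 0 before adjustment.

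FPKM is scaled by transcript length, so the levels of the members can be ordered. In young mice the order of the mean levels was Epyc, Dcn, Ogn, Lum, Omd, Bgn, Prelp, Aspn, Fmod and Kera. Ogn and Lum, Omd and Bgn, Prelp and Aspn, and Aspn and Fmod were neighbours with overlapping ranges. In old mice the order was Epyc, Dcn, Ogn, Lum, Bgn, Omd, Prelp, Fmod, Aspn and Kera, and the ranges of neighbours overlapped only for Ogn and Lum. Thus Omd went from beside Bgn to below it, and Aspn went from beside Fmod to below it. The summed FPKM of the 10 members averaged 871.6 ± 81.9 FPKM in the young and 862.1 ± 20.02 FPKM in the old group (SD, n = 3 each), a difference smaller than the spread between samples. Dcn made up 25.9 to 32.2% of it in young samples and 19.0 to 23.7% in old samples. Omd made up 2.87 to 3.47% and 1.79 to 1.86%, and Lum made up 9.26 to 9.77% and 11.6 to 12.4%. These shares did not overlap between the groups, and neither did those of Fmod, Prelp and Aspn. They are the members whose levels did not overlap either. The shares of Epyc (37.8 to 45.6% and 44.2 to 48.8%), Bgn, Ogn and Kera overlapped.

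Ratios between members within a sample do not depend on a single scaling factor per library. Decorin and lumican are both fibril-binding and their genes are neighbours on chromosome 10. The ratio of Dcn to Lum was 3.13, 3.48 and 2.65 in young replicates 1, 2 and 3, and 1.54, 2.05 and 1.61 in old replicates 1, 2 and 3. The groups did not overlap, which had to follow from Dcn being lower and Lum higher in every old sample. The mean log2 ratio differed by -0.84 (exact permutation test, two-sided, p = 0.1, or 0.133 when adjusted over the 8 ratios computed). This p therefore adds nothing to the separate results of Dcn and Lum. The ratio of Omd to its neighbour Ogn was 0.247, 0.265 and 0.262 in the young replicates and 0.137, 0.1399 and 0.162 in the old replicates. It varied less among the young samples than the level of Omd itself did, and the groups again did not overlap (difference in log2 ratio -0.82, exact permutation test, two-sided, p = 0.1, adjusted 0.133). The ratio of the neighbours Fmod and Prelp averaged 0.561 ± 0.01199 in the young and 0.641 ± 0.0936 in the old group (SD, n = 3 each). Here the groups overlapped (exact permutation test, two-sided, p = 0.4, adjusted 0.4).

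**Figure D3:**
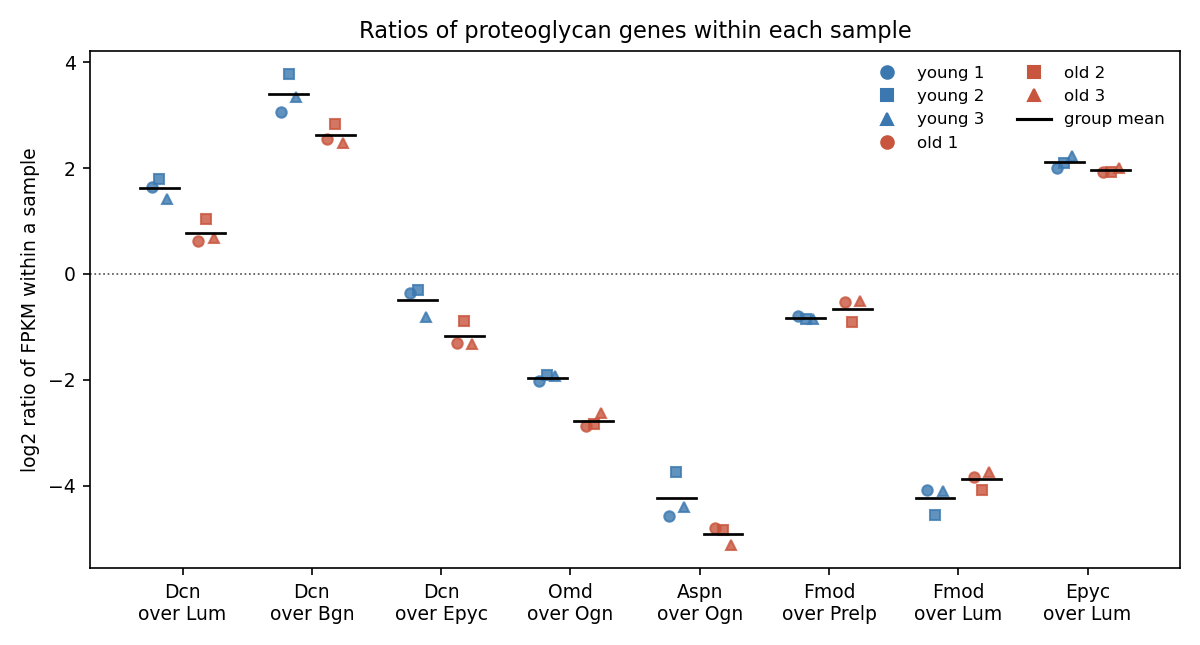
Log2 ratio of the FPKM of pairs of SLRP genes within each sample, in young (blue) and old (red) samples with the group mean as a line. Dcn over Lum and Omd over Ogn are lower in all old samples than in all young samples, and Fmod over Prelp overlaps.

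The table lists transcripts, and 5 of the members had 2 transcripts in it, all annotated as protein coding. Epyc was split almost evenly between ENSMUST00000020094, with 8 exons and 1723 nt, and ENSMUST00000105285, with 7 exons and 2539 nt, the one with the upstream and the other with the downstream start. The upstream transcript held 47.1 to 48.9% of the Epyc signal in young samples and 47.2 to 49.1% in old samples, and these shares overlapped between the ages. For Dcn, ENSMUST00000105287 held 85.8 to 88.3% in young samples and 83.7 to 89.6% in old samples. Its level went from 220.9 ± 18.5 FPKM (SD, n = 3) to 154.0 ± 14.8 FPKM (SD, n = 3), and the log2 change of -0.52 did not pass (limma adjusted p = 0.0659 over all transcripts). The minor Dcn transcript ENSMUST00000163448, of the same length but a later start, was at 32.2 ± 1.37 and 24.8 ± 7.92 FPKM with overlapping groups. The Bgn transcripts ENSMUST00000033741 and ENSMUST00000169489 each held between 41.5 and 58.5% in every sample. The second Aspn transcript had a mean of 0.105 FPKM, and the second Fmod transcript was near 0. No transcript of a member passed the threshold when p was adjusted over the 38764 transcripts tested, of which 0.748% were called (0.199% lower in old mice). The unadjusted limma p was below 0.05 for 6 of the members' transcripts, the main transcripts of Dcn, Omd, Lum, Fmod, Aspn and Prelp, and for 17.0% of all transcripts tested. The single Omd transcript had a limma adjusted p of 0.0597 there.

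**Figure D4:**
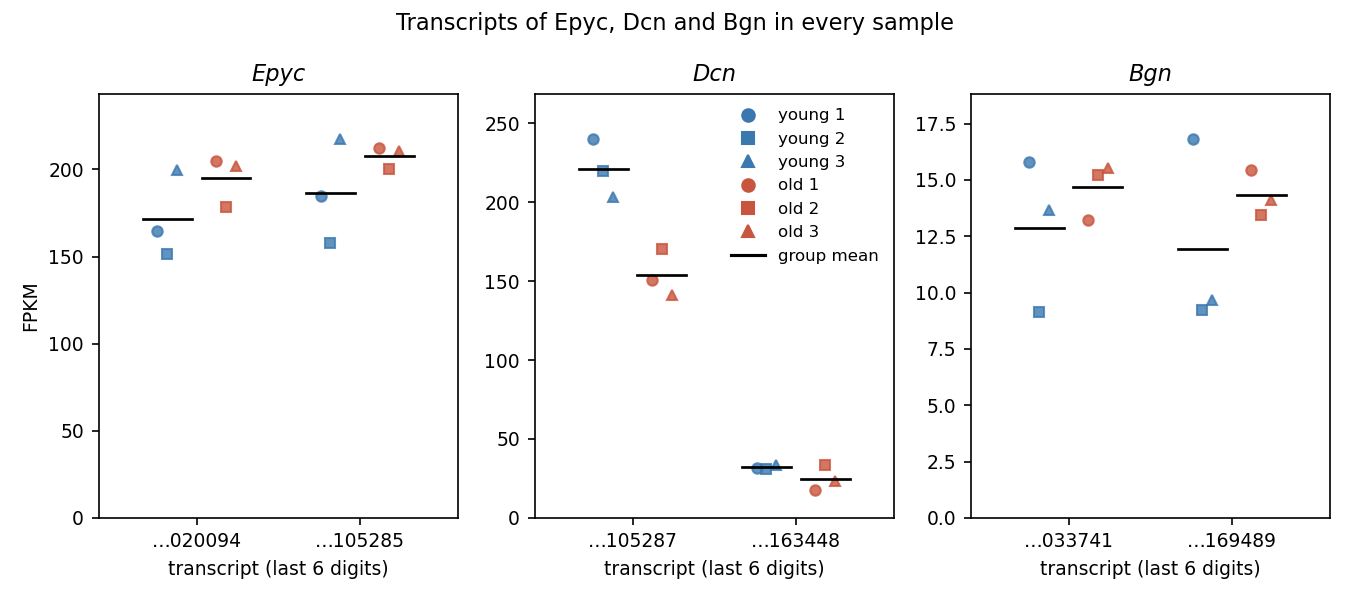
FPKM of the transcripts of Epyc, Dcn and Bgn in each young (blue) and old (red) sample, with the group mean as a line. The Epyc transcripts are near equal at 151.3 to 217.5 FPKM, the main Dcn transcript is lower in every old sample, and the Bgn transcripts overlap between the ages.

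The marker lists of other cells were set beside the members. The summed level of 15 fibroblast genes was 192.0, 181.4 and 178.8 FPKM in the young replicates and 161.5, 155.7 and 151.3 FPKM in the old replicates. Dcn had the same order of the young samples as this sum. Among the single fibroblast genes Islr had it too, whereas the more abundant Serpinf1, Pdgfra and Pdgfrb had others. In this list 1 gene was called lower (Serpinf1) and 1 higher (Islr) of 14 tested, with a median log2 change of -0.35. Coch, Otos and the other 3 spiral ligament fibrocyte genes summed to between 10743 and 13130 FPKM in young samples and between 9006 and 9357 FPKM in old samples. Of these, Coch was lower (log2 change -0.60, limma adjusted p = 0.0241) and Car3 was higher (log2 change 1.15, limma adjusted p = 0.0127). The 10 chondrocyte genes summed to between 1443 and 1501 FPKM and between 1248 and 1476 FPKM, with 2 genes called lower (Acan and Hapln1) and 2 higher (Matn1 and Cnmd). The supporting cell genes summed to 3275, 3249 and 3808 FPKM in the young replicates and 3808, 3811 and 4091 FPKM in the old replicates. S100a1 held most of this sum, at 2229, 2134 and 2641 FPKM in the young replicates. Among the young samples the sum was highest in replicate 3 and lowest in replicate 2. Lum, Fmod, Prelp, Epyc and the summed growth factor and receptor list described below had the same order, whereas the supporting cell genes Sox2 and Gjb6 had others. Aspn had the order of the spiral ligament fibrocyte sum, highest in replicate 2 and lowest in replicate 3. Coch held most of that sum, at 8271, 9242 and 7371 FPKM in the young replicates. Coch and Otos had this order, whereas Pou3f4, Tbx18 and Car3 of the same list had others. The hair cell sum had the order of the supporting cell sum too. Ocm held most of the hair cell sum, at 140.2, 91.9 and 173.5 FPKM in the young replicates. Otof also had this order, whereas Myo7a and Slc26a5 had others. The hair cell sum was lower in every old sample, with 4 of 10 genes called lower and a median log2 change of -1.08. Only few orders of 3 young samples exist, so a member can share one with a list, here or for bone, without any relation. How often other genes share these orders was not counted. The part of these cells in the differences of the members was not tested.

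Other genes of the SLRP pathway were counted in lists. Of the 8 further SLRP genes, 6 were tested and 0 were called in limma (median log2 change -0.12). Chadl and Tsku had the highest means of these, at 4.06 and 3.48 FPKM. The neighbours of the members, Ecm2 and Optc, were not called or not tested. Ecm2 averaged 3.91 ± 0.843 FPKM in the young and 2.88 ± 0.358 FPKM in the old group (SD, n = 3 each, limma adjusted p = 0.222), and Optc had a mean of 0.0713 FPKM, below the limit for the test. Of the 26 genes that build chondroitin and dermatan sulfate chains, 0 were called, with a median log2 change of -0.04. Papss1, which makes the sulfate donor, and B3gat3, which completes the linker of the chain, had the highest means (53.5 and 49.0 FPKM).

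Keratan sulfate chains are carried by lumican, fibromodulin, osteomodulin and keratocan. Of 7 tested genes for these chains, 2 were higher and 1 was lower in old mice. B4galt4, a galactosyltransferase of the chain, went from 32.0 ± 0.604 FPKM (SD, n = 3) to 45.7 ± 3.22 FPKM (SD, n = 3), with a log2 change of 0.51 (limma adjusted p = 0.0158). The sulfotransferase gene Chst5 went from 6.25 ± 1.18 to 12.2 ± 2.22 FPKM, with a log2 change of 0.95 (limma adjusted p = 0.0292). The sulfotransferase gene Chst2 went from 12.0 ± 1.23 to 7.04 ± 0.567 FPKM, with a log2 change of -0.76 (limma adjusted p = 0.0194). B3gnt2, the second most abundant gene of this list, was not called (log2 change 0.15).

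The fibrils to which SLRPs bind were examined by 17 collagen genes, of which 5 were lower and 2 were higher in old samples. Their median log2 change was -0.37. Col1a2, a chain of type I collagen, went from 72.9 ± 20.3 FPKM (SD, n = 3) to 18.7 ± 1.51 FPKM (SD, n = 3), with a log2 change of -1.93 (limma adjusted p = 0.00726). The type IX chains were called in opposite directions. Col9a1 and Col9a3 were higher (log2 changes 0.50 and 0.67, limma adjusted p = 0.0421 and 0.0287) and Col9a2 was lower (-0.37, limma adjusted p = 0.0449). With 1 sample left out, the calls of Col9a1, Col9a3 and Col9a2 were kept in only 0, 2 and 1 of the fits. Col11a2, the most abundant gene of the list, was at 243.6 ± 26.4 and 309.8 ± 25.3 FPKM and did not pass (limma adjusted p = 0.0672). The summed level of the list in the young samples was highest in replicate 1 and lowest in replicate 2, as for bone and Omd.

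Of 17 genes for growth factors and receptors that SLRPs bind, 3 were higher and 1 was lower. Bmp6 went from 23.5 ± 3.33 FPKM (SD, n = 3) to 42.3 ± 1.51 FPKM (SD, n = 3), with a log2 change of 0.86 (limma adjusted p = 0.0119). Tlr2, an innate immune receptor that binds biglycan, went from 3.15 ± 0.351 to 6.33 ± 1.18 FPKM (limma adjusted p = 0.0244), and Lrp1, an endocytic receptor of decorin, went from 109.9 ± 5.98 to 132.1 ± 2.43 FPKM (limma adjusted p = 0.0431). Ccn4 was the lower one, with a log2 change of -1.34 (limma adjusted p = 0.0162). Tgfbr2 was not called (log2 change 0.15). Of 14 tested procollagen and SLRP proteases and their enhancers, 1 was higher and 1 was lower. Pcolce and Pcolce2, both enhancers of the procollagen C-proteinase, were called in opposite directions, with log2 changes of 0.86 and -0.99 (limma adjusted p = 0.0287 and 0.0202). Mmp14 and Htra1, the most abundant of this list, were not called. Over all pathway and marker lists 33 genes were called, and of these 20, 12 and 29 were called in the same direction without young replicate 1, 2 and 3, and 12, 2 and 10 without old replicate 1, 2 and 3. Col1a2 and Acan were called whichever sample was left out.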

How the data were processed

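Directional RNA libraries of 3 young and 3 old cochlear samples were sequenced as paired-end reads. By the submitters' processing notes, the authors used CASAVA (1.8), TopHat2 (2.0.9), Cufflinks (2.1.1) and Cuffdiff (2.1.1) on GRCm38, and the deposited values are FPKM per transcript and sample. The annotation release and the scaling between libraries are not given in the sources used here. Of 55679 Ensembl transcripts, 55275 were matched to GENCODE M21, and FPKM values were summed per gene without further scaling. The authors' 992 own transcripts and 404 unmatched ones were kept as genes of their own.

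Depth was estimated from genes with a single listed transcript of 1000 to 4000 nt. Of their low values, 92.2 to 93.8% lay within 0.1 of a whole fragment, against 20% by chance. The fragment numbers of a gene were calculated back from FPKM, transcript length and this depth. They are estimates and not counts, and they do not measure the spread between pools of mice.

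The age groups were tested by limma 3.58.1 in R 4.3.3 (lmFit, eBayes with trend) on log2(FPKM + 0.1), for genes with a mean of at least 0.1 FPKM. The log2 scale with this pseudocount understates changes of low genes. Tests were two-sided, p was adjusted over all genes by the Benjamini-Hochberg method, and the threshold was 0.05. Cuffdiff, which the study used for testing, starts from reads and was not run. The code was tested on simulated data. Python 3.11.15 and scipy 1.17.1 were used for exact permutation tests.

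The members and gene lists were chosen with earlier results of these data known. All members were named, and of each list the 2 genes with the highest mean and the called genes (if over 5, the 4 with the highest mean), of which the text gives a part. Ecm2 and Optc were named outside this rule, as neighbours of members. Alternatives were the pseudocount, the filter, the scaling, the variance trend, sample weights, a replicate block, the most abundant transcript, and each sample left out. Protein sequences were not used here.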

Additional observations from a re-analysis of the deposited data

How the results depend on the processing

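No member was called higher under any of the 16 alternatives. The number called lower was 2 in 7 of the 10 alternatives that keep all samples, 1 without the filter on low values, 0 without the variance trend and 1 with the replicate number as a block. It was between 0 and 2 with 1 sample left out. Dcn had a limma adjusted p of 0.0521 without the filter, 0.0907 without the trend and 0.0530 with the block, and Omd had 0.0638 without the trend. The causes were not tested. With 1 sample left out, the smaller number of samples and the choice of the sample removed cannot be told apart. Of the members that were not called, all stayed so under all alternatives. The change of Ogn turned to -0.0382 and that of Epyc to -0.01 under quantile normalization, and Ogn ranged from -0.075 to 0.2103 with 1 sample left out.

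The number of all genes called was 1787 and fell to 908 without the filter, 392 without the trend and 675 with the block, and to between 59 and 1756 with 1 sample left out (59 without old replicate 2). It was 2374 with sample weights, 2024 at a mean of at least 1 FPKM, and between 1351 and 1791 under the other alternatives. Of the 33 called genes of the lists, 18 were called in the same direction without the filter, 11 without the trend and 20 with the block, and between 2 and 29 with 1 sample left out. The deviations of samples with the same replicate number correlated at 0.03, -0.10 and 0.04 over 15074 genes, and not every sample correlated best with its own number, so the numbers were not taken as a pairing. The table holds no counts, and an estimated 29.8 to 47.9 fragments underlie the values of Kera.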

Other observations

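Over the 6 samples, members were compared by their log2(FPKM + 0.1) profiles, from which the difference between the age groups was not removed. Members that were lower in old mice are therefore alike in part by that difference, and unlike those that were higher. These comparisons rest on 6 libraries shared by all genes and on 15074 genes with a mean of at least 1 FPKM, so that close likeness of some genes to any profile is found. Among the members, Lum and Fmod were most like each other (Pearson r = 0.98), and Prelp was most like Lum (r = 0.96). Dcn was most like Omd (r = 0.89), and least like Lum (r = -0.82). Of the genes outside the family, Vgll3 and Cacng4 were most like Dcn, Spef1 and Farp2 were most like Omd, and Sorl1 and Gm43263 were most like Lum. Phospho1, a phosphatase of bone mineralization, and Phkg1 were most like Kera, and 4931403G20Rik and Atp11a were most like Epyc.

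The young samples differed among themselves more than the old samples for several members. Young replicate 2 was the lowest young sample for 8 of the 10 members, whereas it was the lowest for 34.5% of all genes tested. The level of Prelp had an SD of 2.06 FPKM among the young and 0.0559 FPKM among the old samples, and that of Bgn had an SD of 7.24 and 0.569 FPKM. Dcn went the other way, with an SD of 17.7 and 21.3 FPKM, and Fmod differed little (1.21 and 1.03 FPKM). The spread was not compared over all genes.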
